A study of Mus musculus with 56 samples.

Results

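The hepatic drug transporters studied here were 9 genes chosen by name as the main carriers of drugs and organic anions in rodent liver: 3 uptake carriers (Slco1a1, Slco1a4 and Slco1b2), 4 pumps of the bile canaliculus (Abcb1a, Abcb1b, Abcg2 and Abcc2) and 2 pumps of the sinusoidal side (Abcc3 and Abcc4). They were chosen with earlier results of these data known. All 9 were among the 45513 gene identifiers of each count file, and all 9 were among the 14314 genes left by the filter on low counts. Liver mRNA was sequenced in 56 female APOE*3Leiden.CETP mice, with 8 mice in each of 7 groups and 1 library per mouse. These mice carry the human APOE*3Leiden variant together with APOC1, and human CETP under its own flanking regions, which gives them a lipoprotein profile closer to that of humans. All groups, control included, were fed a Western-type diet with 15% cacao butter and 0.15% cholesterol and entered the study at 9 to 14 weeks of age. The tyrosine kinase inhibitors (TKIs) were given by gavage in 5% carboxymethyl cellulose for 16 weeks. Nilotinib was given at 10 or 30 mg/kg and ponatinib at 3 or 10 mg/kg once daily, and imatinib at 150 mg/kg in 2 gavages per day. All mice except those given imatinib received a second gavage of vehicle alone, and control mice received vehicle only. A further group received vehicle and 0.12 to 0.20% L-NAME, an inhibitor of nitric oxide synthases, in the drinking water, and how long it was given is not stated in the sources used here. Reads assigned to genes numbered 5342379 to 17996732 per mouse in 55 mice and 97473341 in L-NAME mouse 10. Values are normalised CPM, the counts of a gene scaled to the library size after TMM normalisation, and p-values come from edgeR's quasi-likelihood test in 1 fit of all 56 mice, adjusted by the Benjamini-Hochberg method over all 14314 genes. A gene is said to have risen or fallen, or to have been called, at an adjusted p below 0.05. Some counts of members or listed genes at an unadjusted p below 0.05 are also given. The share of all genes at that threshold was not determined.

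Drugs and endogenous anions such as bile acids and bilirubin conjugates enter the hepatocyte from sinusoidal blood through organic anion transporting polypeptides, the products of the Slco genes. They leave through ATP-driven pumps, either into bile across the canalicular membrane or back into blood across the basolateral membrane. The basolateral pumps Abcc3 and Abcc4 are known to be raised when bile flow is blocked, and Abcb1a, Abcb1b and Abcg2 are known as pumps of many TKIs. In bulk liver, fewer cells of a type and less RNA per cell cannot be told apart.

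The 250 bases before the start of transcription are shown for 3 members that were called against control in at least 1 comparison and whose RefSeq start (GRCm38.p6) lay within 10 bases of the start annotated in GENCODE vM21. Capitals mark matches, on either strand, to the core of the xenobiotic response element (GCGTG), the core of the antioxidant response element (TGACNNNGC), the nuclear receptor half-site (AGGTCA), the HNF1 half-site (GTTAAT), the E-box (CACGTG) and the TATA box (TATAAA), and no match overlaps another.
Abcc4, chr14:118706220-118706469, minus strand: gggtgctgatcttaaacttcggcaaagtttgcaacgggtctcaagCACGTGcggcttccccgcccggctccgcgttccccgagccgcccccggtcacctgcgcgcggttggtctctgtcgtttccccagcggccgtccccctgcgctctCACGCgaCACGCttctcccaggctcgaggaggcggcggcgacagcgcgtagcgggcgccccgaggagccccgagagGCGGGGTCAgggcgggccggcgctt
Abcg2, chr6:58584283-58584532, plus strand: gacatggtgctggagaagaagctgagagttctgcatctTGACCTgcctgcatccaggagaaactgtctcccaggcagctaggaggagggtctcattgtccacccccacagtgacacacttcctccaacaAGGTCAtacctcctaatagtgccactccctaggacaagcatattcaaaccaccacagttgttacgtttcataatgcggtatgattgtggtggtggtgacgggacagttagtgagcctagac
Slco1b2, chr6:141629268-141629517, plus strand: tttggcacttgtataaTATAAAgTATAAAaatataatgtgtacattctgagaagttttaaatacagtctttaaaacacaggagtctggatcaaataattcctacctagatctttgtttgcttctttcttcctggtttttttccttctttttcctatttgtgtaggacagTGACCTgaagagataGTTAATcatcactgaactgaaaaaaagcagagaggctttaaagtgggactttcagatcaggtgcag
In the Abcc4 sequence the capitals are 1 E-box, 2 xenobiotic cores in reverse orientation and 1 antioxidant core in reverse orientation, 17 to 25 bases before the start. The Abcg2 sequence holds 2 nuclear receptor half-sites. The Slco1b2 sequence holds 2 TATA boxes 222 to 234 bases before the start, 1 nuclear receptor half-site and 1 HNF1 half-site. Of 32851 RefSeq promoters of this length, 28.2% hold the xenobiotic core, 10.2% the antioxidant core, 14.0% the nuclear receptor half-site, 6.43% the HNF1 half-site, 6.02% the E-box and 12.4% the TATA box. A match is a description of the letters and not a site of binding. RefSeq promoters were found for 8 of the 9 members, all but Abcc3, and that of Abcb1a lay 92986 bases from the annotated start and is not shown. Further RefSeq promoters of Abcg2, 12149 and 56023 bases from the annotated start, hold 0 and 1 nuclear receptor half-sites. A further promoter of Abcc4, 29288 bases away, holds 1 antioxidant core. They are not shown either, and which start is used in liver was not tested.

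The members differed widely in level. Per kilobase of exon, control mice had the highest level for Slco1b2, at 221 ± 35.7 CPM per kb (SD, n = 8 mice), followed by Abcc2 at 74.8 ± 9.16 and Abcc3 at 68.2 ± 12.3 CPM per kb. Slco1a4 stood at 24.5 ± 7.20, Abcc4 at 6.34 ± 5.09, Abcg2 at 5.98 ± 1.23 and Abcb1a at 2.27 ± 1.18 CPM per kb. Slco1a1 at 0.76 ± 0.90 and Abcb1b at 0.15 ± 0.13 CPM per kb were close to the limit of detection. Neighbours in this order that lay within 1 SD of each other were Abcc2 and Abcc3, Abcc4 and Abcg2, and Slco1a1 and Abcb1b. No read was counted for Slco1a1 in 10 mice and for Abcb1b in 16 mice, where a count of 0 allows up to 0.279 to 0.444 and 0.313 to 0.54 CPM (3 reads per library, counting error only). The coefficient of variation among control mice was 12.2% for Abcc2, 16.2% for Slco1b2, 18.1% for Abcc3, 20.5% for Abcg2 and 29.4% for Slco1a4. It was larger for Abcb1a (52.0%), Abcc4 (80.4%), Abcb1b (85.9%) and Slco1a1 (119%), so that the smallest change that could be seen differed greatly between members.

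**Figure D1:**
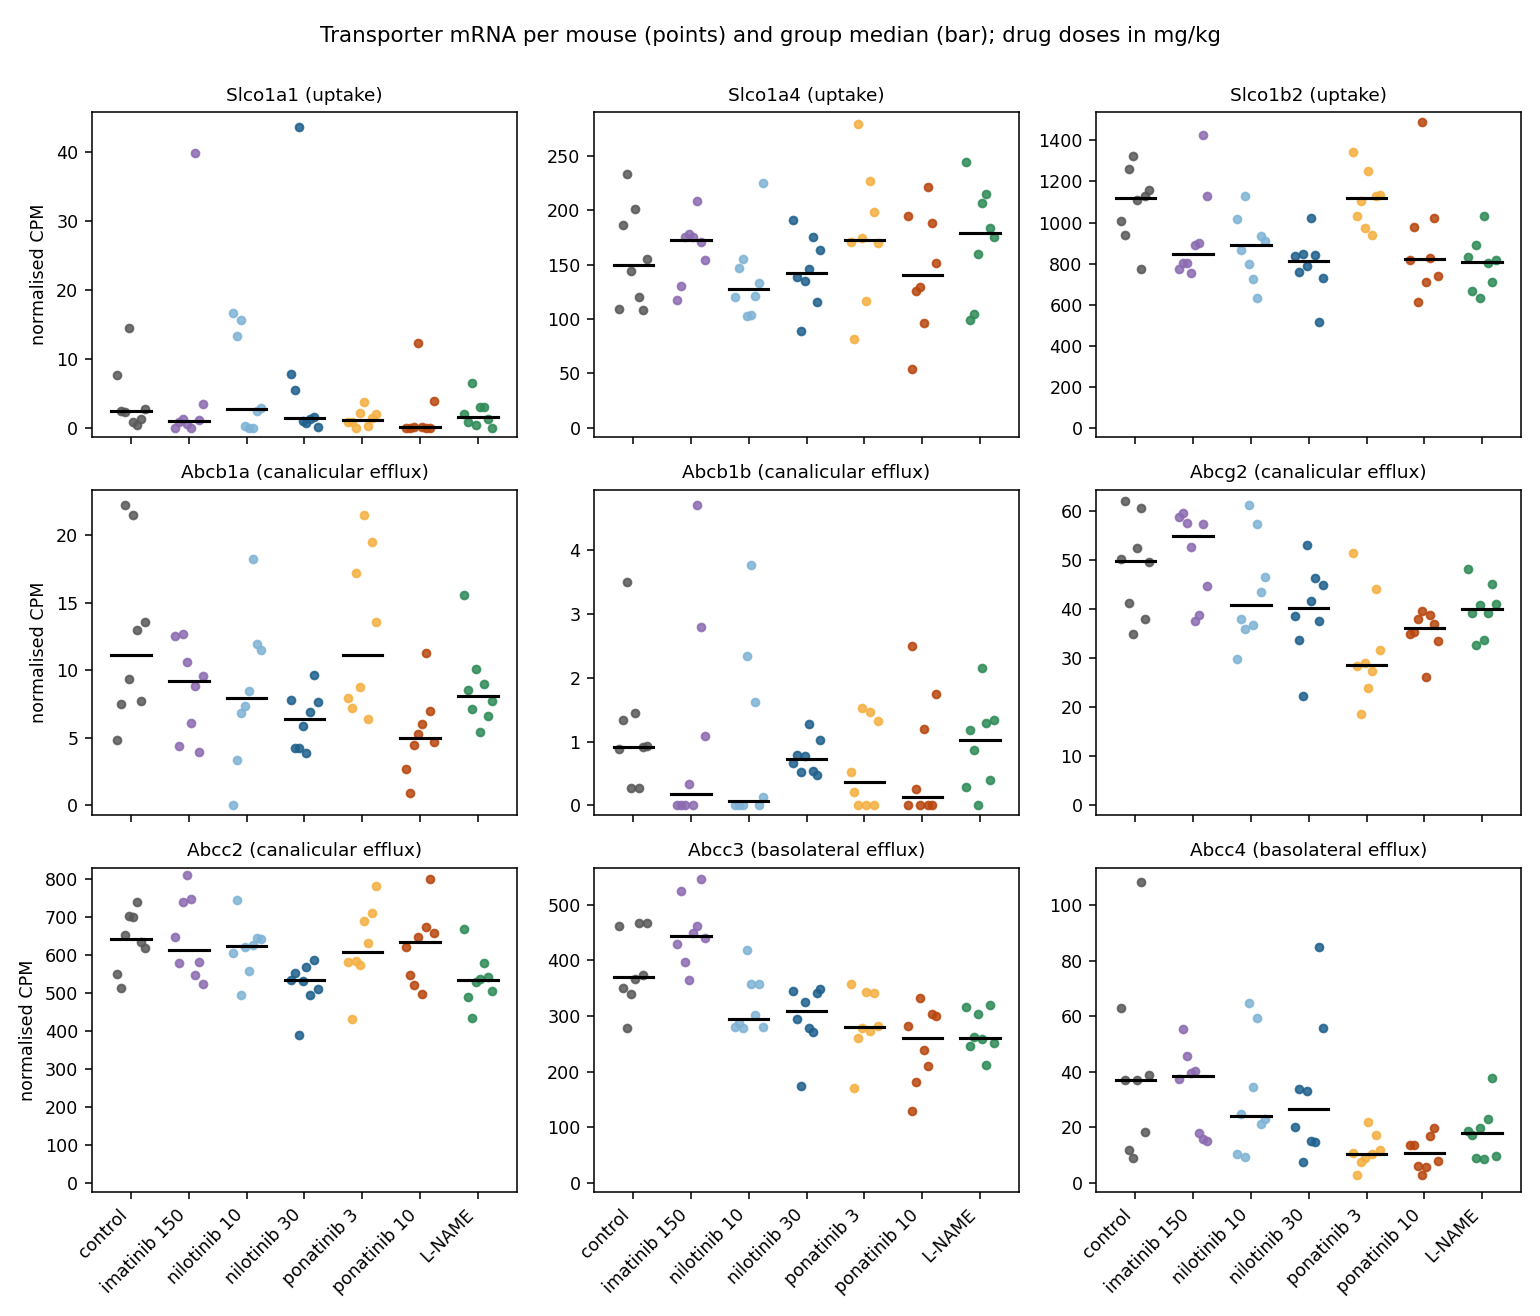
Normalised CPM of each of the 9 transporter genes (vertical axis, linear, a panel per gene) in the 7 groups (horizontal axis, drug doses in mg/kg). Each point is 1 mouse and each bar the group median. Abcc4 lay between 2.92 and 22.0 CPM in the 16 mice given ponatinib and reached 108 CPM in control mice. No member had a treated group wholly apart from control, and over all genes 0.105 to 2.57% did, depending on the group.

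Among the 9 members, high-dose ponatinib changed the most. In mice given ponatinib 10 mg/kg, 4 of 9 members were called, all lower: Abcc4, Abcc3, Abcb1a and Abcg2. Over all genes tested, 13.1% were called in this comparison in either direction and 5.87% were called as lower. With L-NAME, 2 of 9 members fell, Slco1b2 and Abcc3 (11.8% of all genes called in either direction, 6.24% as lower), and with nilotinib 30 mg/kg, 1 of 9 fell, Slco1b2 (5.77% of all genes called, 3.43% as lower). With imatinib 0 of 9 members were called by edgeR, none had an unadjusted p below 0.05, DESeq2 called 0 and limma voom 1 (10.3% of all genes called by edgeR). With nilotinib 10 mg/kg edgeR called 0 of 9, with 1 member at an unadjusted p below 0.05 and 0 called by DESeq2 or limma voom (1.41% of all genes called). With ponatinib 3 mg/kg edgeR called 0 of 9, 3 had an unadjusted p below 0.05, and DESeq2 called 2 and limma voom 3 (0.0419% of all genes called by edgeR). The median log2 fold change of the 9 members was -0.65 with ponatinib 10 mg/kg, -0.45 with L-NAME, -0.43 with ponatinib 3 mg/kg, -0.29 and -0.26 with nilotinib 30 and 10 mg/kg and 0.02 with imatinib, where the median of all genes lay between -0.02 and 0.03. These comparisons share the same 8 control mice. For no member were the CPM of a treated group wholly outside those of control. This was near the share over all genes, few of which had groups that did not overlap. That share was 1.14% with imatinib and 0.65% and 1.73% with nilotinib 10 and 30 mg/kg. It was 0.105% and 0.957% with ponatinib 3 and 10 mg/kg and 2.57% with L-NAME. The study itself used an unadjusted p of 0.01. At that threshold 0 members passed with imatinib (12.9% of all genes) and with nilotinib 10 mg/kg (5.97%), 3 with nilotinib 30 mg/kg (9.35%), 3 with ponatinib 3 mg/kg (3.14%), 4 with ponatinib 10 mg/kg (15.0%) and 3 with L-NAME (14.0%).

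**Figure D2:**
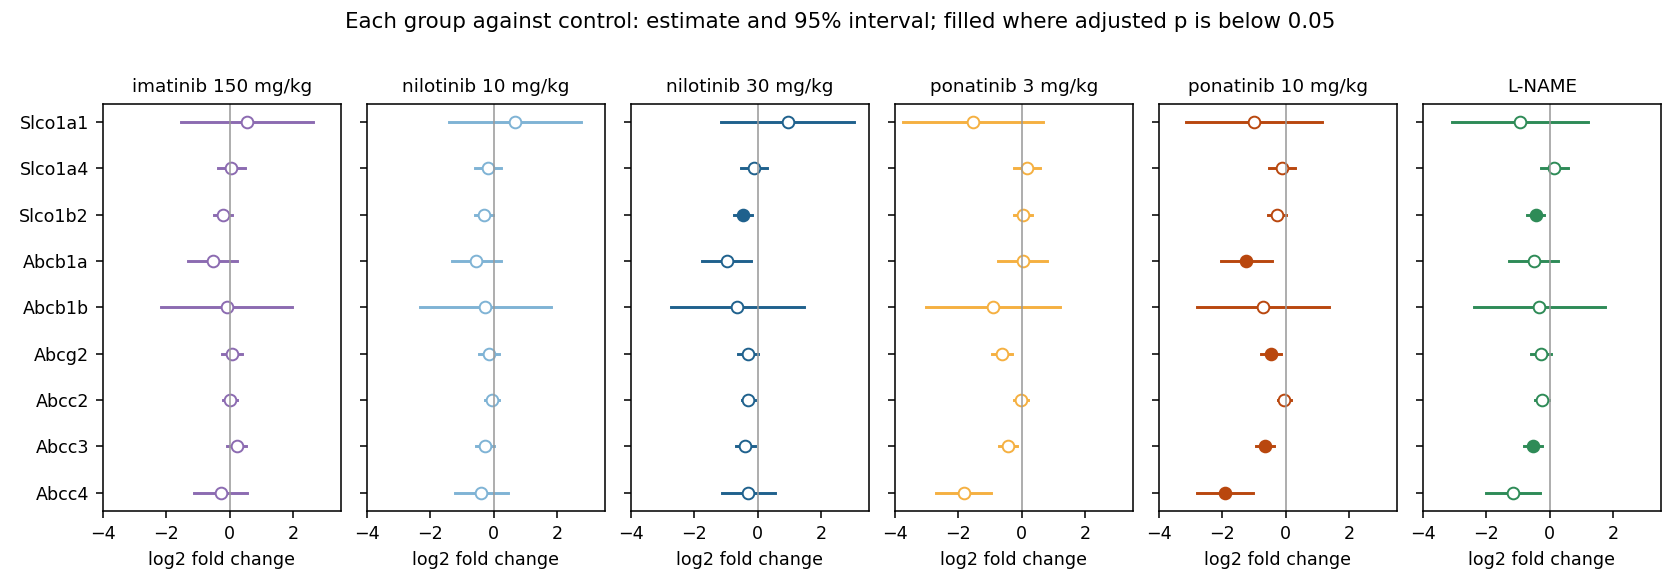
Log2 fold change of each member against control (horizontal axis) with its 95% interval, a panel per treated group. Filled points have an adjusted p below 0.05: 4 with ponatinib 10 mg/kg, 2 with L-NAME and 1 with nilotinib 30 mg/kg, all below 0. The intervals of Slco1a1 and Abcb1b span over 4 log2 units.

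The share of uniquely aligned reads that lay outside annotated genes differed between groups. It is given here because the number of calls changed when this share was a covariate. It was 7.55 to 8.67% in control mice, 7.78 to 9.75% with ponatinib 3 mg/kg and 8.16 to 14.09% with imatinib. In the mice given nilotinib 10 mg/kg (9.14 to 11.02%), nilotinib 30 mg/kg (9.41 to 12.71%), ponatinib 10 mg/kg (8.89 to 15.19%) and L-NAME (8.81 to 16.75%) it was above that of every control mouse. Treatment and this share therefore cannot be told apart in these 4 groups. With the share as a covariate, 1 of 9 members stayed below an adjusted p of 0.05 with ponatinib 10 mg/kg (Abcc4) and 0 with nilotinib 30 mg/kg or L-NAME. After each group's mean was subtracted, the share had a Pearson's r of -0.42 with log2 CPM of Slco1b2 over the 56 mice, -0.21 with Abcc3 and 0.05 with Abcc4, given as a description.

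Of the uptake carriers, Slco1b2 was the one with called differences. Slco1b2 (ENSMUSG00000030236, chr6:141629518-141686646, plus strand) encodes the main liver-specific organic anion carrier of the mouse, which takes up statins and conjugated bilirubin. Its lowest, median and highest values were 776, 1120.3 and 1322 CPM in control mice, and 513, 811 and 1024 CPM with nilotinib 30 mg/kg. The nilotinib group was shifted downwards but overlapped control, with 3 of 8 mice below every control mouse. Slco1b2 fell by 27.2% with nilotinib 30 mg/kg (log2 fold change -0.46, SE 0.14, 95% interval -0.74 to -0.18, edgeR adjusted p = 0.036). The values with L-NAME were 632, 808 and 1031 CPM, again with 3 of 8 mice below every control mouse, and Slco1b2 fell by 26.7% (log2 fold change -0.45, SE 0.14, edgeR adjusted p = 0.0243). With nilotinib 10 mg/kg they were 631, 889 and 1132 CPM (log2 fold change -0.31, adjusted p = 0.273), and with imatinib 755, 848 and 1425 CPM (-0.22, adjusted p = 0.361, against -0.32 and 0.0371 by limma voom and -0.066 and 0.87 with the covariate). In the high-dose ponatinib group they were 612, 822 and 1489 CPM (-0.27, adjusted p = 0.202, against -0.42 and 0.00778 by limma voom), and the value of 1489 CPM in mouse 18 was far above the next mouse at 1020 CPM. Without that mouse the log2 fold change was -0.42 and the adjusted p 0.0212, and with the share of reads outside genes as a covariate they were -0.051 and 0.916. With ponatinib 3 mg/kg Slco1b2 lay at 937, 1118 and 1346 CPM, close to control, and the log2 fold change was 0.03 (95% interval -0.24 to 0.31).

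The calls for Slco1b2 lay close to the threshold. That for nilotinib 30 mg/kg was made in 48 of 56 fits with 1 mouse left out, and was lost without nilotinib mouse 15, 49 or 54 or control mouse 22, 28, 33, 46 or 52 (log2 fold change -0.46 to -0.39, adjusted p 0.0539 to 0.0922). That for L-NAME was made in 53 of 56 and lost without L-NAME mouse 10 or 32 or control mouse 28 (log2 fold change -0.42 to -0.41, adjusted p 0.0508 to 0.0525). With the share of reads outside genes as a covariate the log2 fold change was -0.25 with nilotinib 30 mg/kg (edgeR adjusted p = 0.53) and -0.21 with L-NAME (adjusted p = 0.579).

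Slco1a4 (ENSMUSG00000030237, chr6:141805440-141856199, minus strand) encodes a carrier of bile acids and cardiac glycosides and is known as a target of the xenobiotic receptor PXR. Its group medians lay between 127 CPM with nilotinib 10 mg/kg and 179.5 CPM with L-NAME, against 149.8 CPM in control mice, and all 7 groups overlapped. The mean ± SD of control mice, 157 ± 46.2 CPM, was near that of imatinib mice, 164 ± 28.9 CPM, with a log2 fold change of 0.06 (95% interval -0.36 to 0.47). Over the 6 comparisons with control the log2 fold change ran from -0.18 to 0.17, and the lowest adjusted p was 0.766. Slco1a1 (ENSMUSG00000041698, chr6:141907282-141946962, minus strand), a carrier known to be far higher in male than in female mouse liver, had a median of 2.36 CPM in control mice. Its medians in the other groups lay between 0.04 CPM with ponatinib 10 mg/kg, where 4 of 8 mice had no read, and 2.65 CPM with nilotinib 10 mg/kg. A single mouse stood far above its group at 39.9 CPM with imatinib (mouse 39) and at 43.6 CPM with nilotinib 30 mg/kg (mouse 20). No difference was detectable for Slco1a1 at this depth by edgeR, whose adjusted p over the 6 comparisons was 0.621 or more. For ponatinib 10 mg/kg the log2 fold change of -0.99 had a 95% interval from -3.13 to 1.15, and 6 of 8 mice lay below every control mouse. Limma voom with sample quality weights called Slco1a1 with ponatinib 10 mg/kg at a log2 fold change of -3.36 (adjusted p = 0.0423), while the covariate fit gave -0.068 (adjusted p = 0.987).

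Among the canalicular pumps, Abcb1a and Abcg2 fell with ponatinib 10 mg/kg. Abcc2 had the smallest coefficient of variation of the members among control mice. Abcb1a (ENSMUSG00000040584, chr5:8660077-8748575, plus strand) encodes P-glycoprotein, the multidrug pump that exports many TKIs. Its lowest, median and highest values were 4.83, 11.1 and 22.2 CPM in control mice, or 59 to 178 reads, and 0.93, 4.99 and 11.3 CPM with ponatinib 10 mg/kg, or 10 to 79 reads. The ranges overlapped, with 4 of 8 ponatinib mice below every control mouse. Abcb1a fell by 57.7% with ponatinib 10 mg/kg (log2 fold change -1.24, SE 0.40, 95% interval -2.03 to -0.45, edgeR adjusted p = 0.0274). The call was made in 51 of 56 fits with 1 mouse left out and lost without ponatinib mouse 2, 8 or 48 or control mouse 22 or 33 (log2 fold change -1.22 to -1.07, adjusted p 0.0502 to 0.0737), and with the covariate the log2 fold change was -1.43 at an adjusted p of 0.0753. With nilotinib 30 mg/kg the values were 3.84, 6.41 and 9.62 CPM (log2 fold change -0.98, adjusted p = 0.135). A fit of these 2 groups alone called Abcb1a with nilotinib 30 mg/kg (edgeR adjusted p = 0.0375). With ponatinib 3 mg/kg the values of 6.38, 11.1 and 21.5 CPM were close to those of control (log2 fold change 0.03, 95% interval -0.73 to 0.80). The other groups had medians of 9.19 CPM with imatinib, 7.90 CPM with nilotinib 10 mg/kg and 8.11 CPM with L-NAME, with log2 fold changes of -0.53, -0.55 and -0.51 and adjusted p-values of 0.439, 0.582 and 0.476.

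Abcb1b (ENSMUSG00000028970, chr5:8798147-8866315, plus strand), the second mouse P-glycoprotein gene, had a median of 0.92 CPM in control mice and at most 4.71 CPM in any mouse. Of the 50-base words in Abcb1a transcripts, 16.3% also occur in those of Abcb1b, and of those in Abcb1b transcripts 11.1% occur in those of Abcb1a. The counting left out reads with several alignments, so both counts are uncertain where the sequences are shared. The summed counts of both genes fell with ponatinib 10 mg/kg as Abcb1a alone did (log2 fold change -1.19, SE 0.36, edgeR adjusted p = 0.0207). Abcb1b alone had log2 fold changes from -0.91 to -0.09 over the 6 comparisons with standard errors of 1.03 to 1.05, so no difference was detectable at this depth.

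Abcg2 (ENSMUSG00000029802, chr6:58584523-58695676, plus strand) encodes the breast cancer resistance protein, which exports TKIs and sulphate conjugates into bile. Its lowest, median and highest values were 35.0, 49.9 and 62.2 CPM in control mice and 26.1, 36.2 and 39.8 CPM with ponatinib 10 mg/kg. Of the 8 ponatinib mice, 3 lay below every control mouse, and all 8 were below the control median. Abcg2 fell by 27.3% (log2 fold change -0.46, SE 0.16, 95% interval -0.77 to -0.14, edgeR adjusted p = 0.0418). Of the 4 calls with ponatinib 10 mg/kg this one was lost in the most fits, being made in 45 of 56 with 1 mouse left out. It was lost without control mouse 1, 12, 33, 40 or 52 or ponatinib mouse 2, 8, 14, 24, 42 or 48 (log2 fold change -0.48 to -0.40, adjusted p 0.0511 to 0.0966). It was also lost without the count filter (-0.47, adjusted p = 0.0517), without the L-NAME group (-0.46, adjusted p = 0.0553) and with the covariate (-0.48, adjusted p = 0.146), so that the size of the change stayed about the same while the adjusted p passed 0.05. With ponatinib 3 mg/kg the values were 18.7, 28.7 and 51.4 CPM, and 6 of 8 mice lay below every control mouse. The log2 fold change there was -0.61 (SE 0.16, 95% interval -0.93 to -0.30) with an edgeR adjusted p of 0.122, against a DESeq2 adjusted p of 0.0429 and a limma voom adjusted p of 0.0308. It passed in edgeR without ponatinib 3 mg/kg mouse 7 (-0.75, adjusted p = 0.037) or control mouse 28 (-0.68, adjusted p = 0.0498). In the other groups the medians were 55.1 CPM with imatinib, 40.8 and 40.2 CPM with nilotinib 10 and 30 mg/kg and 40.1 CPM with L-NAME, with log2 fold changes of 0.06, -0.16, -0.29 and -0.29 and adjusted p-values from 0.266 to 0.866.

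Abcc2 (ENSMUSG00000025194, chr19:43782192-43840740, plus strand) encodes the canalicular pump for bilirubin glucuronides and glutathione conjugates. Its median was 643 CPM in control mice, 614 CPM with imatinib, 623 and 533 CPM with nilotinib 10 and 30 mg/kg, 608 and 634 CPM with ponatinib 3 and 10 mg/kg and 533 CPM with L-NAME. In the high-dose ponatinib group the log2 fold change was -0.04 with a narrow 95% interval from -0.26 to 0.17. With nilotinib 30 mg/kg it was -0.29 (SE 0.11, unadjusted p = 0.0087, edgeR adjusted p = 0.098) and with L-NAME -0.25 (adjusted p = 0.12). Limma voom called Abcc2 in both of these groups (adjusted p 0.0171 and 0.0322), and 3 of 8 mice in each lay below every control mouse.

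Both basolateral pumps fell with ponatinib 10 mg/kg, and they gave the lowest adjusted p-values of the 9 members. Abcc3 (ENSMUSG00000020865, chr11:94343295-94392997, minus strand) exports glucuronides and bile acids into blood. Its lowest, median and highest values were 279, 371 and 468 CPM in control mice and 130.0, 260.5 and 333 CPM with ponatinib 10 mg/kg. The groups overlapped between 279 and 333 CPM, with 4 of 8 ponatinib mice below every control mouse. Abcc3 fell by 36.3% (log2 fold change -0.65, SE 0.14, 95% interval -0.94 to -0.36, edgeR adjusted p = 0.00126). With L-NAME the values were 212, 260.2 and 319.9 CPM, 5 of 8 mice lay below every control mouse, and Abcc3 fell by 30.2% (log2 fold change -0.52, SE 0.14, edgeR adjusted p = 0.0103). Both calls were made in all 56 fits with 1 mouse left out, and both were lost with the covariate (log2 fold change -0.50, adjusted p = 0.077, and -0.37, adjusted p = 0.262). With nilotinib 30 mg/kg the values were 175, 309 and 349 CPM (log2 fold change -0.39, adjusted p = 0.10) and with ponatinib 3 mg/kg 171, 281 and 359 CPM (-0.43, adjusted p = 0.265). Limma voom called Abcc3 in these 2 groups (adjusted p 0.00462 and 0.0276). With nilotinib 10 mg/kg the values were 279, 295 and 419 CPM (log2 fold change -0.28, adjusted p = 0.371). Imatinib mice had the highest median of the 7 groups, with values of 365, 445 and 546 CPM, but the log2 fold change against control was 0.22 with a 95% interval from -0.07 to 0.50 (adjusted p = 0.379).

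Abcc4 (ENSMUSG00000032849, chr14:118482692-118706219, minus strand) exports bile acids, cyclic nucleotides and nucleotide analogues into blood. It was the most variable of the members that were detected in every mouse, with a 37.1-fold span between the lowest and the highest of the 56 mice. Its lowest, median and highest values were 9.07, 37.1 and 108 CPM in control mice, and 2.99, 10.8 and 19.8 CPM with ponatinib 10 mg/kg. All 8 ponatinib mice lay below the control median and 4 below every control mouse, while 3 control mice with 9.07, 12.0 and 18.4 CPM lay within the ponatinib range. Abcc4 fell by 73.5% with ponatinib 10 mg/kg (log2 fold change -1.91, SE 0.44, 95% interval -2.79 to -1.04, edgeR adjusted p = 0.00182). The call was made in all 56 fits with 1 mouse left out, where the log2 fold change ran from -2.09 to -1.52, and with the covariate (log2 fold change -1.87, adjusted p = 0.0303). With ponatinib 3 mg/kg the values were 2.92, 10.5 and 22.0 CPM, again with all 8 mice below the control median. The log2 fold change of -1.83 (SE 0.44, 95% interval -2.71 to -0.96, unadjusted p = 9.0e-05) missed the threshold after adjustment (edgeR adjusted p = 0.082). DESeq2 and limma voom called it (adjusted p 0.0306 and 0.0251), and so did edgeR without the count filter (0.0476) and without control mouse 22 or 28 or ponatinib 3 mg/kg mouse 29 (0.0248 to 0.0387). The covariate fit gave the same log2 fold change, -1.83, at an adjusted p of 0.0863. With L-NAME the values were 8.63, 18.0 and 37.9 CPM (log2 fold change -1.17, SE 0.42, adjusted p = 0.0595). That comparison passed the threshold without control mouse 22, 28 or 46 or L-NAME mouse 50 (adjusted p 0.0255 to 0.0488) and in a fit of these 2 groups alone (0.0407), and with the covariate it stood at -1.13 (adjusted p = 0.28). The medians were 38.4 CPM with imatinib and 24.0 and 26.6 CPM with nilotinib 10 and 30 mg/kg, with log2 fold changes of -0.28, -0.39 and -0.29 and 95% intervals that all included 0.

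**Figure D3:**
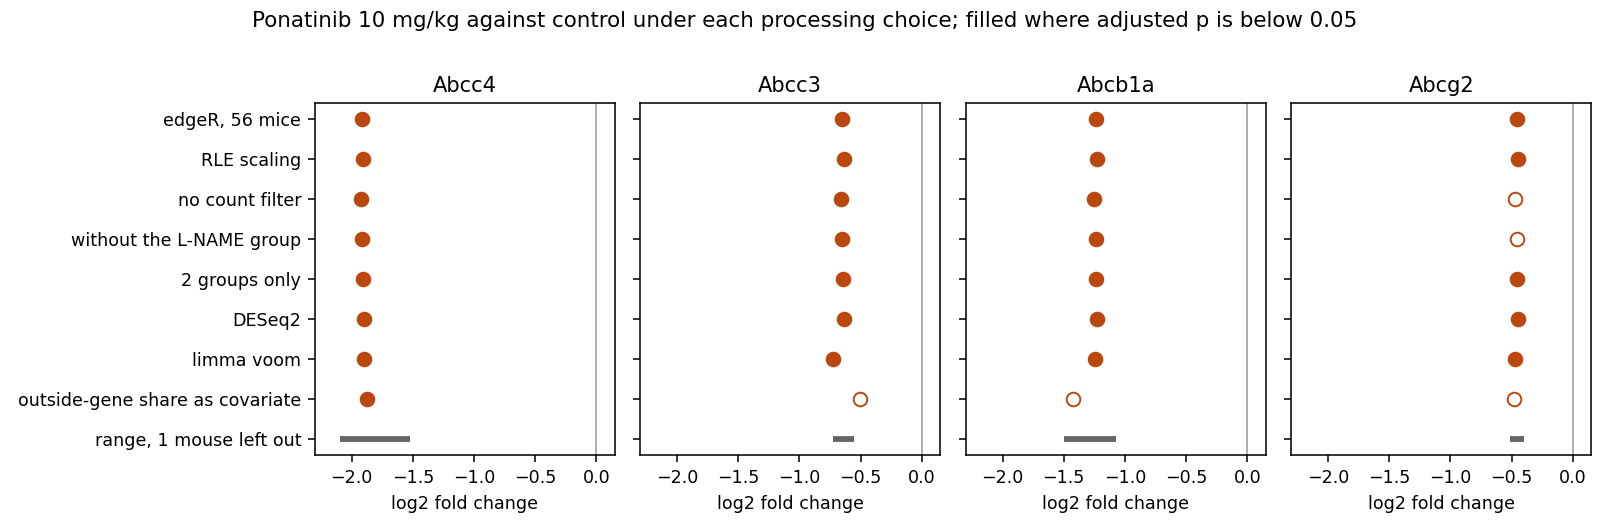
Log2 fold change (horizontal axis) of the 4 members called with ponatinib 10 mg/kg against control, under each processing choice (vertical axis), with the range over the 56 fits that leave out 1 mouse as a grey bar. Points are filled where the adjusted p was below 0.05. Every value lies below 0, Abcc4 is filled in all 8 fits, and the covariate fit leaves Abcc3, Abcb1a and Abcg2 open.

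The doses of each drug were also compared directly. Between ponatinib 10 and 3 mg/kg edgeR called 0 of 9 members (1.39% of all genes called), with 2 at an unadjusted p below 0.05 and 1 at an unadjusted p below 0.01 (5.78% of all genes), and DESeq2 called 0 and limma voom 1. Abcb1a had the lowest p of these, with a median of 4.99 against 11.1 CPM, 6 of 8 mice of the higher dose below every mouse of the lower dose, and a log2 fold change of -1.28 (SE 0.40, 95% interval -2.07 to -0.48, edgeR adjusted p = 0.0885). Leaving out nilotinib 10 mg/kg mouse 3, which is in neither group, gave an adjusted p of 0.0388, and the covariate fit gave -1.43 at an adjusted p of 0.292. For Slco1b2 the log2 fold change was -0.31 (edgeR adjusted p = 0.287), and it passed the threshold in limma voom (-0.47, adjusted p = 0.0148) and without ponatinib 10 mg/kg mouse 18 (-0.45, adjusted p = 0.0361), while the covariate fit gave -0.13 (adjusted p = 0.889). Abcc4 differed little between the doses, with a log2 fold change of -0.08, but its 95% interval reached from -0.96 to 0.80. Between nilotinib 30 and 10 mg/kg edgeR called 0 of 9 members and 0 of all genes, DESeq2 and limma voom called 0 of 9, and 1 member (Abcc2, log2 fold change -0.24, adjusted p = 0.818) had an unadjusted p below 0.05.

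Ponatinib and nilotinib were given at the same nominal dose and schedule only at 10 mg/kg once daily, so that 1 pair of compounds was compared. The plasma exposure that the paper calculated at this dose was lower for ponatinib than for nilotinib. Compound and exposure therefore cannot be told apart in this comparison. Ponatinib carries an alkyne linker that nilotinib lacks. Abcc4 was called, with values of 2.99, 10.8 and 19.8 CPM for ponatinib and 9.42, 24.0 and 64.8 CPM for nilotinib. It was 65.3% lower with ponatinib, at a log2 fold change of -1.53 (SE 0.44, 95% interval -2.40 to -0.65, edgeR adjusted p = 0.0453), and it was the only one of 9 members called (2.06% of all genes) and the only one at an unadjusted p below 0.01 (6.73% of all genes). This call was close to the threshold. It was lost in 16 of 56 fits with 1 mouse left out (log2 fold change -1.58 to -1.27, adjusted p 0.05003 to 0.135), namely without ponatinib 10 mg/kg mouse 2, 14, 18, 24 or 48, nilotinib 10 mg/kg mouse 25, 30 or 36, ponatinib 3 mg/kg mouse 7 or 34, control mouse 33 or 52, L-NAME mouse 10 or 45, imatinib mouse 21 or nilotinib 30 mg/kg mouse 31. It was also lost in a fit of these 2 groups alone (-1.52, adjusted p = 0.0954), without the L-NAME group (-1.52, adjusted p = 0.0557), with the covariate (-1.51, adjusted p = 0.0723) and with limma voom (-1.65, adjusted p = 0.125), all at about the same size of difference. For Abcc3 the log2 fold change between the compounds was -0.37 (95% interval -0.66 to -0.09, adjusted p = 0.159) and for Abcb1a -0.69 (-1.48 to 0.10). For Abcc2 and Slco1b2 it was 0.01 (-0.21 to 0.22) and 0.04 (-0.24 to 0.32). Imatinib was given at another dose and schedule, and its values stand beside the others without a comparison.

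A set of 7 further lists covered other hepatic transporters, the receptors and factors that regulate them, and the target genes of these receptors. They held 90 different genes, 84 of which were tested. With imatinib 21 of the 84 rose and 2 fell (10.3% of all genes called), with ponatinib 10 mg/kg 0 rose and 12 fell (13.1% of all genes called), and with L-NAME 2 rose and 10 fell (11.8%). Counted in either direction, the calls for ponatinib 10 mg/kg and L-NAME were thus close to the share over all genes. As lower, 5.87% and 6.24% of all genes were called in these comparisons. The falls therefore made up a larger part of the 84 than of all genes. This difference was not tested, and the lists were chosen with earlier results of these data known. With nilotinib 30 mg/kg 1 rose and 4 fell (5.77%), with nilotinib 10 mg/kg 1 fell (1.41%), and with ponatinib 3 mg/kg 0 were called by edgeR while 17 had an unadjusted p below 0.05. The median log2 fold change of the 84 was 0.095 with imatinib and -0.14 with ponatinib 10 mg/kg.

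Of 10 other uptake transporters tested, Slc22a18 was among those that rose with imatinib (log2 fold change 0.51, edgeR adjusted p = 0.00628). The prostaglandin transporter gene Slco2a1 fell with L-NAME (-0.59, edgeR adjusted p = 0.00909). Of 11 other efflux transporters tested, 3 fell with ponatinib 10 mg/kg (5.87% of all genes called as lower). They were Abcg8, a partner in the canalicular sterol pump (251 ± 49.1 to 159 ± 28.5 CPM, adjusted p = 0.00238), Abcb4, the canalicular phospholipid flippase (326 ± 30.0 to 223 ± 48.3 CPM, adjusted p = 0.00121), and Abca1, the cholesterol exporter that forms HDL (log2 fold change -0.43, adjusted p = 0.0178). Abcb4 also fell with L-NAME (-0.46, adjusted p = 0.00724) and Abca1 with imatinib (-0.48, adjusted p = 0.009999).

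Of the 14 receptors and factors, Nr1i3 (CAR) rose with imatinib from 475 ± 179 to 1038 ± 322 CPM (edgeR adjusted p = 0.000685) and with L-NAME to 785 ± 266 CPM (adjusted p = 0.0247), and Nr1i2 (PXR) rose with imatinib (log2 fold change 0.47, adjusted p = 0.0415). Ppara, the fatty acid receptor of the fasted liver, fell with imatinib, nilotinib 30 mg/kg and L-NAME (log2 fold changes -0.80, -1.61 and -0.89). Hnf4a, a main regulator of hepatocyte genes, fell with nilotinib 30 mg/kg and L-NAME (-0.53 and -0.47), and Rxra fell with nilotinib 30 mg/kg (-0.60, adjusted p = 0.00203). In the high-dose ponatinib group edgeR called 0 of the 14 (13.1% of all genes called), and 4 had an unadjusted p below 0.05.

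Among the 23 target enzymes of CAR and PXR, 8 rose with imatinib (10.3% of all genes called). The index gene Cyp2b10 stood at 3.85 ± 2.84 in control and 29.8 ± 17.9 CPM with imatinib (log2 fold change 2.96, edgeR adjusted p = 0.0015). Cyp2c54 and Cyp2c37 rose too (1.26 and 1.11), as did Cyp3a11, the main drug-oxidising enzyme of mouse liver, with imatinib (0.56, adjusted p = 0.00312) and with nilotinib 30 mg/kg (0.45, adjusted p = 0.0268). Cyp3a25 rose with L-NAME (0.51, adjusted p = 0.00873). In the high-dose ponatinib group 5 of the 23 fell (5.87% of all genes called as lower). Among them were the glucuronidating enzyme gene Ugt1a9 (61.0 ± 30.2 to 10.7 ± 5.99 CPM, edgeR adjusted p = 3.0e-05) and the glutathione transferase genes Gsta2 (-1.65, adjusted p = 0.0456) and Gstm3 (-1.53, adjusted p = 0.0167). Ugt1a1, which conjugates bilirubin, fell with nilotinib 10 and 30 mg/kg (-0.77 and -1.01), and Ugt1a9 and Ugt1a1 fell with L-NAME (-2.23 and -1.23).

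Of 6 targets of the aryl hydrocarbon receptor tested, the index genes Cyp1a1 (0.90 ± 0.54 to 29.7 ± 14.3 CPM, edgeR adjusted p = 4.15e-06) and Cyp1a2 (523 ± 102 to 3359 ± 551 CPM, adjusted p = 2.04e-18) rose with imatinib and were called in no other comparison with control, at log2 fold changes from -0.39 to 0.39 in the other groups. Of 16 targets of NRF2 tested, 3 rose with imatinib (Gstp1, Cbr1 and Ephx1, log2 fold changes 0.88, 0.75 and 0.70, with 10.3% of all genes called). With ponatinib 10 mg/kg 5 fell (5.87% of all genes called as lower). Gsta2 and Gstm3 counted again there, and Srxn1, which encodes sulfiredoxin, fell from 116 ± 80.7 to 51.2 ± 22.5 CPM (edgeR adjusted p = 0.0101). With ponatinib 3 mg/kg edgeR called 0 of the 16. An edgeR unadjusted p below 0.05 was found for 10 of them, with Hmox1 and G6pdx higher (log2 fold changes 0.68 and 0.58) and the rest lower. With ponatinib 10 mg/kg it was found for 8, with Me1 higher (0.49) and the rest lower. The share of all genes at this threshold was not determined. The median log2 fold change of the 16 was -0.53 with ponatinib 3 mg/kg and -0.42 with 10 mg/kg, against -0.01 for all genes in both comparisons. With L-NAME Txnrd1 and Me1 fell (-0.59 and -0.78). Nqo1, the index gene of this list, had a log2 fold change of -0.83 with ponatinib 10 mg/kg and missed the threshold (adjusted p = 0.0581). Of 9 targets of PPAR-alpha, 4 rose with imatinib (10.3% of all genes called), with Acot1, Cyp4a10 and Vnn1 in the lead (1.84, 1.17 and 1.09). Ehhadh, an enzyme of peroxisomal fatty acid oxidation, fell with ponatinib 10 mg/kg and L-NAME (-0.64 and -0.51).

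Hepatocyte markers were high in every mouse: their summed level (8 genes, albumin included) was 67912 to 150276 CPM per mouse over the 7 groups. Kidney tubule markers were at or near 0 (at most 2.20 CPM in sum), and those of pancreatic acinar cells reached 19.7 CPM. With ponatinib 10 mg/kg, where 4 members fell, 4 of 5 erythroid markers rose (summed 162 to 1128 CPM against 149 to 420.1 in control), 2 of 8 Kupffer cell markers rose (374 to 2057 against 689 to 1381 CPM) and 2 of 8 stellate or fibroblast markers fell (168 to 592 against 403 to 1082 CPM). Over all genes 13.1% were called in this comparison in either direction and 5.87% as lower. The medians of the summed levels, with ponatinib 10 mg/kg against control, were 429 against 251 CPM for the erythroid list. They were 930 against 931 CPM for the Kupffer cell list and 512 against 724 CPM for the stellate or fibroblast list. None of the markers of these 3 lists was at 0 in every mouse of a group. Of the hepatocyte markers 2 rose and 1 fell in that group (summed 69944 to 146277 against 76707 to 143753 CPM), and no cholangiocyte, sinusoidal endothelial or leukocyte marker was called by edgeR. With nilotinib 30 mg/kg 1 hepatocyte marker rose and 2 fell, with L-NAME likewise, and 1 Kupffer cell marker rose in each of these groups (5.77% and 11.8% of all genes called). With nilotinib 10 mg/kg 2 hepatocyte markers fell (1.41% of all genes called), and with ponatinib 3 mg/kg 1 stellate marker fell (0.0419%). The median log2 fold change of the 5 erythroid markers was 1.13 with ponatinib 3 mg/kg, where 0 were called, and 1.17 with 10 mg/kg. With imatinib 2 hepatocyte markers rose and 2 fell, and 2 markers fell in each of the stellate, Kupffer cell and leukocyte lists (10.3% of all genes called). The part of these cells in the levels of the transporters was not tested.

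The members did not vary as 1 block across mice. After group means were subtracted, the 36 pairs of members had Pearson's r of log2 CPM from -0.56 to 0.50 over the 56 mice, with a median of 0.02. The points share library depth and composition, and the values are given as a description. The 4 efflux pumps Abcg2, Abcc2, Abcc3 and Abcc4 varied in the same direction, with r from 0.24 to 0.50 among them and the highest value for Abcg2 with Abcc4 (Spearman's rho 0.48). They were not alone in this: Abcb1a had r from 0.21 to 0.27 with each of them, and Slco1a4 had an r of 0.43 with Abcc2. Abcc4 ran opposite to the uptake carriers Slco1b2 (r = -0.56, rho = -0.53) and Slco1a1 (r = -0.50, rho = -0.46). Abcb1a and Abcb1b, which lie next to each other on chromosome 5, had an r of -0.04, and the neighbours Slco1a1 and Slco1a4 on chromosome 6 an r of 0.001.

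**Figure D4:**
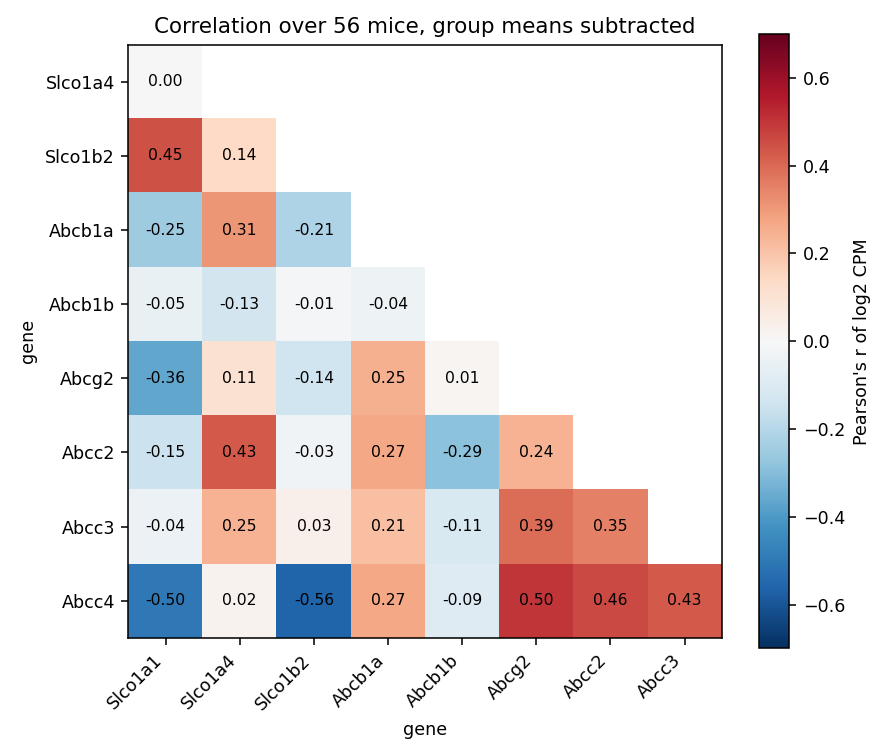
Pearson's r of log2 CPM for each pair of members over 56 mice after each group's mean was subtracted, with red for positive and blue for negative values. Abcc4 has positive values with Abcg2 (0.50), Abcc2 (0.46) and Abcc3 (0.43) and negative values with Slco1b2 (-0.56) and Slco1a1 (-0.50).

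For each member the 3 genes with the highest Pearson's r of log2 CPM over the 56 mice are named, with group differences left in. For Abcc4 they were Gstm3 (r = 0.86), Entpd5 (0.82) and Srxn1 (0.77), and these values were 0.82, 0.78 and 0.69 after group means were subtracted. For Abcc3 they were Ehhadh (0.81, or 0.77 within groups), Ugt1a9 (0.78) and Ugt2b35 (0.76), and for Abcg2 they were Entpd5 (0.67), Ugt2b35 (0.66) and Ephx1 (0.65). Slco1b2 was most like March6, F5 and Apob (0.85, 0.84 and 0.84), Slco1a4 most like Ces2a, Hao2 and Cyp2a22 (0.61, 0.59 and 0.58) and Slco1a1 most like Sult2a8, Cyp4f14 and Ces3a (0.60, 0.60 and 0.57). Abcc2 was most like Slc2a2, Cyp2a4 and Wee1 (0.67, 0.65 and 0.65) and Abcb1a most like Fmr1, Klhl42 and Fam69a (0.69, 0.67 and 0.66). The values for Abcb1b with Gm15267, Rhoh and Adcy1 (0.52, 0.52 and 0.51) rest on very low counts.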

How the data were processed

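Liver RNA of 56 mice was sequenced as poly(A) mRNA. Per the labels and the processing notes, the authors aligned reads to GRCm38 with TopHat2 2.0.14 and Bowtie2 2.1.0 and counted reads per gene with HTSeq 0.6.1p1, and the deposited values are these raw counts, without normalization. The annotation release behind the counts is not given in the sources used here. Gene identifiers were named with GENCODE vM21 (44585 of 45513 matched), and all 9 members were found. The 5 summary rows that name no gene were left out. They held 7.55 to 16.75% of uniquely aligned reads as lying outside genes and 2.01 to 3.65% as ambiguous, and 31.7 to 42.6% of alignment records as not unique. Library sizes ranged from 5342379 to 97473341 counts.

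Counts were filtered by filterByExpr, which left 14314 genes, scaled by TMM (factors 0.91 to 1.16) and tested in edgeR 4.0.16 with the quasi-likelihood test in 1 fit of 56 mice with group as the only term, under R 4.3.3. The standard error of a log2 fold change was its size divided by the square root of F, and intervals are 95%. Log2 CPM used a prior count of 2. The script was tested on simulated data with known changes. Alternatives were DESeq2 1.42.0, limma 3.58.1 (voom with sample quality weights), RLE scaling, no filter, 2 groups only, no L-NAME group, a covariate, other thresholds (the study used an unadjusted p of 0.01), summed paralogs and each mouse left out. The replicate number is a running number of the mouse and pairs no samples.

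The members and lists were chosen with earlier results of these data known. Named genes are all members, up to 3 called genes with the largest change per list and comparison with control, 5 index genes (Cyp2b10, Cyp3a11, Cyp1a1, Cyp1a2 and Nqo1), and the 3 genes most correlated with each member. The result for 1 gene that this rule names is not reported here.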

Additional observations from a re-analysis of the deposited data

Results flagged for a closer look

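In 11 of the 63 combinations of a member and a group, the highest or lowest mouse stood apart from the other 7 by Dixon's test at the 95% level. Chance flags about 1 in 20 where values are normally distributed. The test used untransformed CPM, which is skewed for genes of low count such as Slco1a1, so this rate need not hold here. For Slco1a1 the highest mouse stood apart with imatinib (39.9 CPM in mouse 39, next 3.47), nilotinib 30 mg/kg (43.6 CPM in mouse 20, next 7.8), ponatinib 10 mg/kg (12.3 CPM in mouse 18, next 3.8) and L-NAME (6.5 CPM in mouse 26, next 2.97). Mouse 18 of the ponatinib 10 mg/kg group was also the high one for Slco1b2 (1490 CPM, next 1020). Mouse 20 of the nilotinib 30 mg/kg group was also the low one for Abcc2 (389 CPM, next 494) and Abcc3 (175 CPM, next 272). The others were Slco1a4 with nilotinib 10 mg/kg (225 CPM in mouse 53, next 155), Abcb1a with L-NAME (15.5 CPM in mouse 5, next 10.1), Abcb1b in control mice (3.5 CPM in mouse 22, next 1.45) and the low value of Abcg2 with ponatinib 10 mg/kg (26.1 CPM in mouse 24, next 33.6). Between compounds at the same nominal dose of 10 mg/kg, though not the same plasma exposure, the direct test called Abcc4 lower with ponatinib than with nilotinib (log2 fold change -1.53, edgeR adjusted p = 0.0453, lower than every nilotinib mouse in 4 of 8 mice).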

How the results depend on the processing

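No called log2 fold change of a member took the other sign under any alternative. Of 493 values for members that were not called, 21 took the other sign. The number of members called changed as follows. With the share of reads outside genes as a covariate it was 1 with ponatinib 10 mg/kg (4 as reported) and 0 with nilotinib 30 mg/kg (1), with L-NAME (2) and between ponatinib and nilotinib 10 mg/kg (1). Limma voom called 1 with imatinib, 3 with nilotinib 30 mg/kg, 3 with ponatinib 3 mg/kg, 6 with ponatinib 10 mg/kg, 3 with L-NAME, 1 between the ponatinib doses and 0 between the compounds. DESeq2 called 2 and edgeR without the count filter 1 with ponatinib 3 mg/kg, and no filter gave 3 with ponatinib 10 mg/kg. Fits of 2 groups alone called 2 with nilotinib 30 mg/kg, 3 with L-NAME and 0 between the compounds, and the 48 mice without L-NAME gave 3 with ponatinib 10 mg/kg and 0 between the compounds. At an unadjusted p below 0.01 the counts were 3 with nilotinib 30 mg/kg, 3 with ponatinib 3 mg/kg, 3 with L-NAME and 1 between the ponatinib doses. At an adjusted p below 0.01 they were 2 with ponatinib 10 mg/kg and 0 with nilotinib 30 mg/kg, with L-NAME and between the compounds. With 1 mouse left out the count ran from 2 to 5 with ponatinib 10 mg/kg, 1 to 3 with L-NAME, 0 to 2 with ponatinib 3 mg/kg, and 0 to 1 with nilotinib 30 mg/kg, between the ponatinib doses and between the compounds, and stayed at 0 with imatinib, nilotinib 10 mg/kg and between the nilotinib doses. The cause of these changes was not tested. RLE scaling left every count within 1.5 times of the reported one. Depth limits Abcb1b and Slco1a1 most, with 529 and 1918 reads in all 56 mice together.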

Other observations

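Slco1a1 is known to differ between the sexes, and lists of sex-biased liver genes were examined in these female mice. Of 7 tested genes known to be higher in males, Cyp2d9 rose and C8b fell with imatinib (log2 fold changes 0.97 and -1.01, edgeR adjusted p = 0.00811 and 0.0147), and Mup20 fell with ponatinib 10 mg/kg from 37.6 ± 43.3 to 11.9 ± 6.92 CPM (SD, n = 8 mice, edgeR adjusted p = 0.0448). Of 10 tested genes known to be higher in females, Cyp3a44 rose with imatinib (log2 fold change 3.01, edgeR adjusted p = 0.00393) and with ponatinib 10 mg/kg (2.26, adjusted p = 0.0246), and Cyp4a10 rose with imatinib (1.17). Over all genes 10.3% were called with imatinib and 13.1% with ponatinib 10 mg/kg. With imatinib 7 of these 10 genes and 2 of the 7 male-biased genes had an edgeR unadjusted p below 0.05. The median log2 fold changes of the 2 lists there were 0.94 and -0.11, against -0.02 for all genes. No gene of either list was called by edgeR with nilotinib at either dose, ponatinib 3 mg/kg or L-NAME. Of all genes, 1.41% and 5.77% were called with nilotinib 10 and 30 mg/kg, 0.0419% with ponatinib 3 mg/kg and 11.8% with L-NAME.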
